A study of Lotus japonicus with 12 samples.

Results

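A group of 150 genes of the legume Lotus japonicus was examined whose transcripts were lower in mature than in young root nodules of wild-type (WT) plants and stayed near their young level in nodules of the cpop1 mutant. They were chosen by their values in the same 12 libraries described here, out of a table of 29531 features. A gene was eligible if its identifier placed it on chromosomes 1 to 6 and did not end in _LC, if it reached 1 FPKM (fragments scaled to transcript length and to the library total) in at least 3 libraries, and if its mean over the 12 libraries was under 1000 FPKM, which left 16701 genes. Levels were compared as group medians of log2(FPKM + 1). The genotypes had to be within 1 of each other at 10 days post inoculation (dpi), the WT median had to be lower by 1 or more at 21 than at 10 dpi, and the cpop1 median had to change by less than 0.5. These conditions were met by 400 genes, of which the 150 with the largest WT difference are the members and 250 ranked lower. The conditions together bear on all 3 independent differences among the 4 group medians, so the size and direction of every group difference below is a description of what was selected and is given without a test.

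Root nodules are organs that legumes form after contact with rhizobia. The bacteria are taken up into plant cells, where they turn into nitrogen-fixing bacteroids, and the plant builds the organ first and then runs it. Heme is needed in the nodule for leghemoglobin, the plant protein that binds oxygen and keeps free oxygen low around the bacterial nitrogenase, and the series title names CPOP1 as an enzyme of heme synthesis. A nodule passes from growth and infection in its young state to fixation in its mature state, so genes of many kinds are known to go down as it matures.

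The study set WT nodules against nodules labelled cpop1/hemf2, at 10 dpi (called young by the submitters) and at 21 dpi (called mature), with 3 libraries in each of the 4 groups. All plants were inoculated with Mesorhizobium loti MAFF 303099. Whole nodules were sampled, and the labels give neither the nature nor the number of the mutant alleles, nor whether the replicates are separate plants or pools of nodules. Values are FPKM as deposited, the read depth is unknown, and total FPKM per library ran from 985272 to 1224719. The 3 most abundant features of the table held 16.7 ± 1.28% of total FPKM in mature WT libraries, against 30.6 ± 1.02% in mature cpop1 libraries (SD, n = 3 libraries each), and FPKM of all other genes are relative to that total. Replicate 3 of WT at 10 dpi stood apart: over the eligible genes its mean correlation was 0.84 with its own replicates and 0.92 with the cpop1 10 dpi libraries, against 0.92 and 0.84 for replicates 1 and 2. The 0.92 of replicates 1 and 2 with their own group is a mean that includes their lower correlation with replicate 3. Some of the results that rest on replicate 3 are given with and without it, and the others include it. None of the member identifiers matched the RefSeq gene table of Lotus japonicus, so the members carry no gene names here, no function can be given for them, and few are named.

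In WT nodules the members were at a low to middle level when young and lost most of it by 21 dpi. The median member stood at 9.22 FPKM in WT at 10 dpi and at 2.17 FPKM in WT at 21 dpi. In cpop1 the corresponding levels were 11.6 FPKM at 10 dpi and 10.0 FPKM at 21 dpi. WT at 21 dpi was the lowest of the 4 groups in all 150 members, whereas the highest group was WT at 10 dpi in 60 members, cpop1 at 10 dpi in 57 and cpop1 at 21 dpi in 33. In whole nodules, fewer cells that use a gene and less RNA of it per cell cannot be told apart.

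Summed over the 150 members, FPKM were 5983, 5841 and 8319 in WT replicates 1, 2 and 3 at 10 dpi, and 1875, 1829 and 1845 at 21 dpi. In cpop1 they were 6304, 6645 and 7390 at 10 dpi, and 6730, 6555 and 6252 at 21 dpi. The 3 mature WT libraries lay close together and far below the other 9, and the mature cpop1 libraries lay in the range of the young ones of both genotypes. As a share of total FPKM the members held 0.667 ± 0.117% in WT at 10 dpi and 0.168 ± 0.00222% at 21 dpi, and 0.649 ± 0.0402% and 0.543 ± 0.0292% in cpop1 (SD, n = 3 libraries each). The wide error of the young WT group came from replicate 3, which had the highest sum of the 12 libraries. Its share was 0.802%. Young WT replicates 1 and 2 held 0.607% and 0.593%, below the 0.615% to 0.693% of the young cpop1 libraries. The order of the 2 young group means therefore rested on replicate 3.

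**Figure D1:**
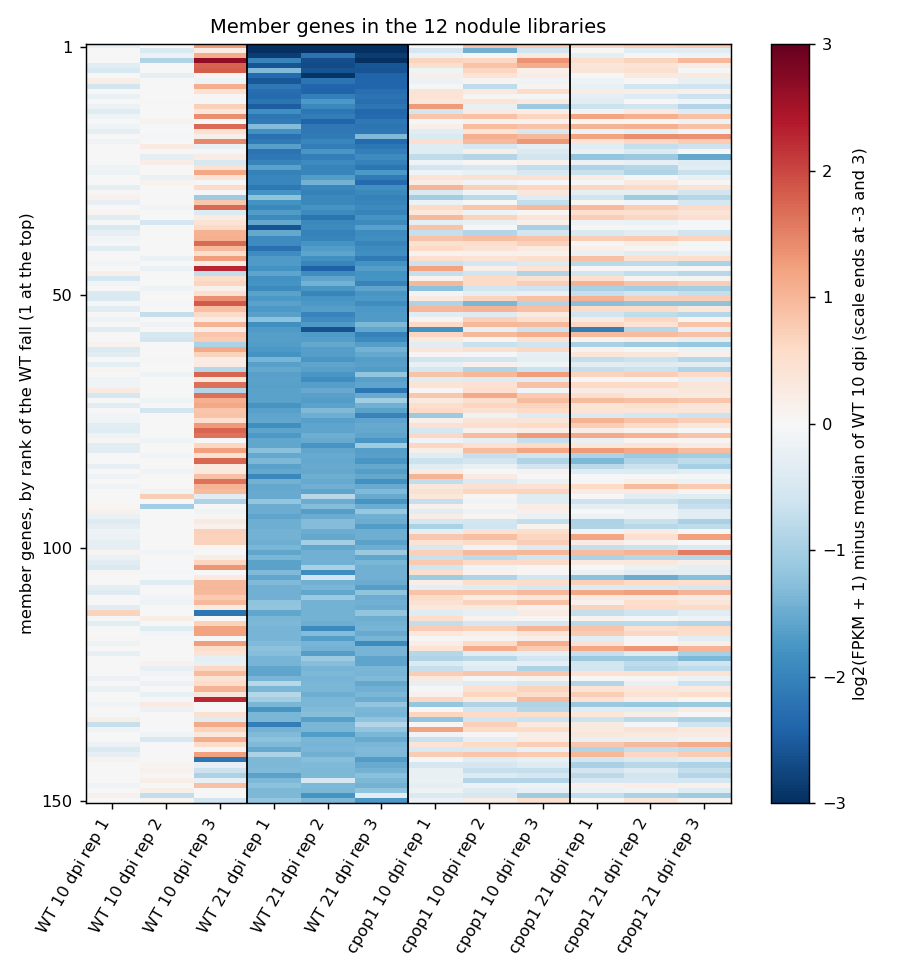
Each row is 1 of the 150 member genes, ordered by the size of the WT difference with rank 1 at the top, and each column is 1 library. Colour gives log2(FPKM + 1) minus the gene's median in WT at 10 dpi. The 3 WT 21 dpi columns are low in nearly every row, the 6 cpop1 columns stay near the young WT level with gene-specific offsets, and WT 10 dpi replicate 3 is above replicates 1 and 2 in most rows.

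**Figure D2:**
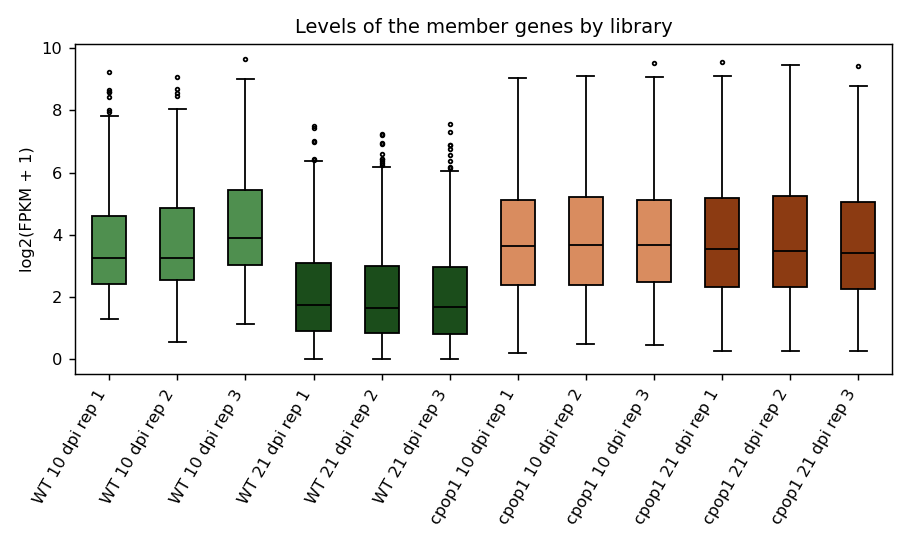
Box plots of log2(FPKM + 1) of the 150 member genes in each library (box, quartiles; line, median; whiskers, 1.5 times the box height at most; points, values beyond). Library medians lie between 2.17 and 2.37 FPKM in WT at 21 dpi and between 8.46 and 14.0 FPKM in the other 9 libraries.

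The WT difference between 21 and 10 dpi had a median of -1.58 over the members on the log2(FPKM + 1) scale, with quartiles of -1.89 and -1.42 and a range from -3.76 to -1.34. Over all eligible genes the median was -0.19, and 63.7% of them had a lower median at 21 dpi. Put as FPKM, the median member kept 23.6% of its young WT level, with quartiles of 15.3% and 29.8% and a highest value of 39.4%. Members of lower level kept less: the 77 members under 10 FPKM in young WT nodules kept a median of 17.3%, the 57 between 10 and 100 FPKM kept 28.6%, and the 16 above 100 FPKM kept 34.0%. With a pseudocount of 1, the same log2 difference is a larger loss in percent of FPKM at low levels. On the log2(FPKM + 1) scale the class medians of the WT difference lay close together and did not follow this order. The largest in size was that of the class between 10 and 100 FPKM. The order in percent kept can therefore follow from the scale alone. The 3 classes held 45.3%, 46.9% and 7.77% of the eligible genes. In 31 members all 3 mature WT libraries were under 1 FPKM, and these members passed the level filter through the other groups. The WT 21 dpi median was listed at 0 in 4 members.

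A linear model of all 22249 features at 1 FPKM or more in at least 3 libraries was fitted with limma, with a call at an adjusted p under 0.05. It called 147 of 150 members lower at 21 than at 10 dpi in WT, where 24.4% of all features tested were called lower. All 3 mature WT libraries lay below all 3 young ones in 147 members and in 33% of all features. The selection used this comparison, so these counts describe the members and add nothing to their choice.

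LotjaGi1g1v0242200 ranked 1. It was at 23.2, 27.4 and 67.2 FPKM in WT at 10 dpi and at 2.52, 1.10 and 1.07 FPKM at 21 dpi, a difference of medians of -3.76. In cpop1 it was at 28.8, 50.02 and 47.5 FPKM at 10 dpi and at 42.8, 45.3 and 47.4 FPKM at 21 dpi. The mature WT libraries were far below the other 9, which overlapped one another. It was also the member with the largest genotype difference at 21 dpi, 4.46 on the log2 scale, with a mean of 1.56 ± 0.829 FPKM in WT and 45.1 ± 2.30 FPKM in cpop1 (SD, n = 3 libraries each). LotjaGi1g1v0410900 ranked 2 and went from 142, 106 and 167 FPKM to 15.6, 16.6 and 16.6 FPKM in WT, a difference of -3.03. In cpop1 it was at 99.6, 51.7 and 93.6 FPKM at 10 dpi and at 143, 115 and 112 FPKM at 21 dpi, so that mature mutant nodules were in the range of young WT nodules. The mature cpop1 libraries were all above the young ones. By limma its cpop1 age estimate was 0.64 and not called. Its genotype estimate at 10 dpi was -0.79 and called lower in cpop1.

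In the members of highest mean level over the 12 libraries, WT at 21 dpi was again the lowest group, and the order of the other groups differed between genes. LotjaGi4g1v0031000 was at 383, 348 and 803 FPKM in WT at 10 dpi, at 125, 120.2 and 187 FPKM in WT at 21 dpi, at 470.3, 551 and 739 FPKM in cpop1 at 10 dpi and at 742, 704 and 682 FPKM in cpop1 at 21 dpi. Its mature WT libraries did not overlap any other group, and the other 3 groups overlapped. LotjaGi1g1v0152000 had the smallest WT difference among the members, rank 150, at -1.34, and was at 384, 409 and 258 FPKM in young and at 171, 151 and 116 FPKM in mature WT nodules. In cpop1 it was at 337, 449 and 536 FPKM when young and at 401, 491 and 419 FPKM when mature. The next gene, at rank 151 and therefore left out, had a difference of -1.34 as well, with medians of 3.67 and 0.85 FPKM in WT and 5.77 and 4.58 FPKM in cpop1, so nothing in the data sets a boundary at this rank.

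3 members were not called lower in WT, LotjaGi5g1v0000900, LotjaGi2g1v0318700 and LotjaGi3g1v0424300, named here after their values were seen. LotjaGi5g1v0000900 was at 340.0, 212 and 46.3 FPKM in WT at 10 dpi and at 70.8, 78.9 and 92.8 FPKM at 21 dpi. LotjaGi2g1v0318700 was at 226, 209 and 45.7 FPKM and then at 81.3, 85.9 and 65.3 FPKM. In both, replicate 3 was the lowest of the 6 WT libraries, and the group median, which the choice of members used, did not show it. LotjaGi3g1v0424300 had overlapping WT libraries, from 4.95 to 9.78 FPKM at 10 dpi and from 1.92 to 7.0 FPKM at 21 dpi.

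**Figure D3:**
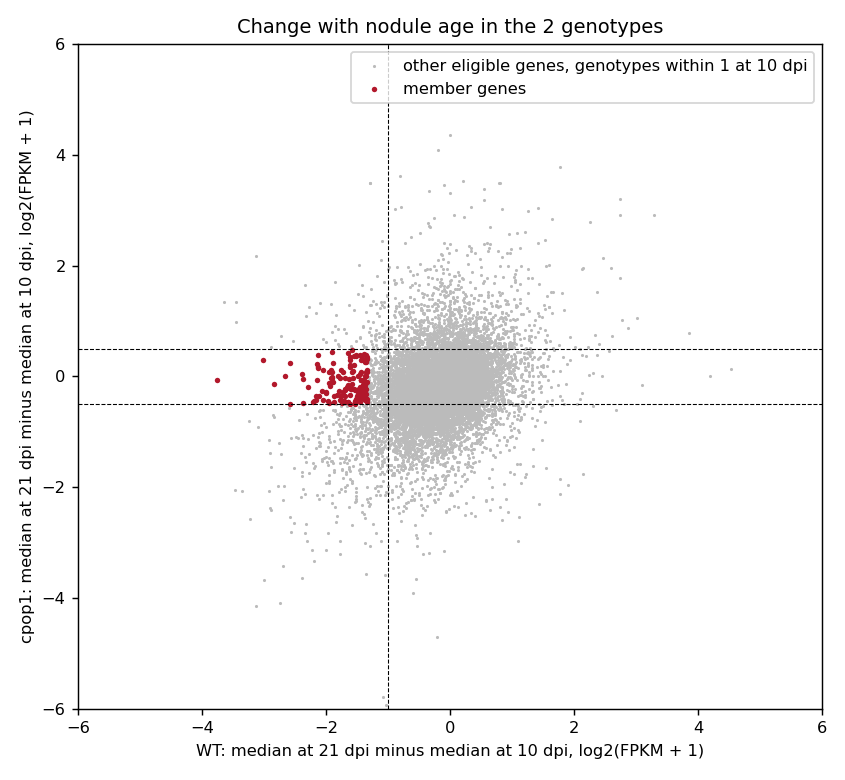
Each point is 1 eligible gene whose genotypes were within 1 of each other at 10 dpi. The x axis gives the WT and the y axis the cpop1 difference of group medians between 21 and 10 dpi on the log2(FPKM + 1) scale, members are red, and dashed lines mark the bounds of -1 in WT and of -0.5 and 0.5 in cpop1. The members fill a slice of one continuous cloud, with grey points directly above and below them.

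The members were a slice of a continuous range. Among the 1081 eligible genes with the same condition at 10 dpi and a WT difference of -1 or lower, the cpop1 median was lower by 1 or more in 320, lower by 0.5 to 1 in 261, within the bound of 0.5 in 400, and higher by 0.5 or more in 100. Of the 400, 271 were below 0. The mirrored choice, genes higher by 1 or more in mature WT nodules with cpop1 within 0.5, gave 137 genes. With all libraries shifted to share 1 median the order turned: 231 genes met the conditions for a lower and 279 those for a higher mature WT level. Under other scalings the lower side stayed larger. The counts were 267 against 201 with quantile normalization and 484 against 109 with equal library totals. With equal totals that leave out the 20 most abundant genes they were 502 against 126.

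In cpop1 the members' age difference was near that of all genes. The members' median difference between 21 and 10 dpi was -0.19, beside -0.23 over all eligible genes, and 103 members were below and 47 above 0, between the bounds of the rule, where 66.1% of all eligible genes were below 0. This median was 0.08 when library medians were made equal and 0.06 when libraries were quantile normalized. It was -0.34 when library totals were made equal and -0.07 when totals were made equal with the 20 most abundant genes left out, so its sign depended on the scaling. The corresponding medians of all eligible genes were 0.05, -0.00, -0.40 and -0.11. By contrast the WT median of the members stayed between -1.30 and -1.73 under these 4 scalings. The median member kept 86.2% of its young cpop1 FPKM, with quartiles of 74.8% and 105%.

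limma called 1 member higher and 5 lower with age in cpop1, where 8.03% of all features were called higher and 21.5% lower. The direction of these few calls moved with the scaling, and so did the calls over all features. There were 13 higher and 0 lower with equal library medians, beside 3385 and 2648 of all 22249 features. With quantile normalization there were 11 and 0, beside 2973 and 2909. With equal totals there were 0 and 22, beside 1257 and 7148. With equal totals that leave out the 20 most abundant genes there were 6 and 0, beside 2359 and 3746. Without WT 10 dpi replicate 3, which enters this comparison only through the shared estimate of the spread, 10 were called higher and 31 lower, beside 15.1% and 36.8% of all features. Without any single cpop1 library, 1 or 2 members were called in all, beside 1157 to 1530 features higher and 3001 to 4053 lower. That the difference was seen in wild type alone therefore holds within the bound of the rule: in the deposited values 103 members also had a lower median in mature cpop1 nodules, a share near that of all eligible genes.

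The member called higher, LotjaGi3g1v0089000, was also the one with the largest positive cpop1 difference, 0.48. It was at 67.7, 80.2 and 81.0 FPKM in cpop1 at 10 dpi and at 128, 112 and 103 FPKM at 21 dpi, without overlap. In WT it was at 55.5, 61.3 and 87.1 FPKM and then at 19.99, 19.1 and 19.8 FPKM. The genotypes thus parted in opposite directions with age in this gene. Of the 5 called lower, LotjaGi3g1v0319100, named here after its values were seen, had the largest estimate, with 17.0, 13.4 and 12.04 FPKM in cpop1 at 10 dpi and 10.1, 9.37 and 7.78 FPKM at 21 dpi. In WT it went from 10.9, 12.6 and 13.1 FPKM to 1.75, 2.27 and 1.93 FPKM. LotjaGi3g1v0368900 had the lowest cpop1 difference of medians, -0.50, with 57.2, 74.7 and 88.9 FPKM at 10 dpi and 52.6, 54.0 and 48.0 FPKM at 21 dpi, and was not called.

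At the edges, 28 members had a cpop1 difference in the lowest 0.1 inside the bound, and 19 genes with a WT difference at least as large as that of the last member were left out because their cpop1 median lay up to 0.1 below the bound. At 10 dpi, 11 members had a genotype difference within 0.1 of the bound of 1.

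In mature nodules every member had a higher median in cpop1 than in WT. The conditions on the other 3 differences favour this direction without forcing it. The difference had a median of 1.68 over the members, with quartiles of 1.06 and 2.14 and a range from 0.16 to 4.46, beside a median of 0.15 over the eligible genes. In FPKM, the mature cpop1 median was 4.59 times the WT median for the middle one of the 146 members not listed at 0 in WT, with quartiles of 2.82 and 6.87. limma called 139 members higher in cpop1 at 21 dpi and 0 lower, where 29.2% of all features were called higher. All 3 mature WT libraries lay below all 3 mature cpop1 libraries in 145 members and in 40.1% of all features. The 11 members that were not called had a median level of 1.62 FPKM in mature cpop1 nodules, against 10.0 FPKM for all 150. Not all of them were low. LotjaGi5g1v0000900 was at 70.8 to 92.8 FPKM in mature WT and at 128 to 169 FPKM in mature cpop1 nodules. LotjaGi2g1v0318700 was at 65.3 to 85.9 FPKM and at 142 to 165 FPKM.

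LotjaGi1g1v0663900 had the second largest genotype difference at 21 dpi, 3.49. Mature nodules held 1.58, 1.80 and 3.91 FPKM of it in WT against 27.1, 31.0 and 30.5 FPKM in cpop1. At 10 dpi it was at 11.2, 11.0 and 12.8 FPKM in WT and at 8.10, 24.7 and 23.0 FPKM in cpop1, where replicate 1 was below and the other cpop1 libraries were above all WT libraries.

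Set against young WT nodules, mature cpop1 nodules held the members at a like level, which was largely set by the choice. This difference is the sum of the genotype difference at 10 dpi and the cpop1 age difference, and the conditions bound both. The difference between the cpop1 21 dpi and the WT 10 dpi medians had a median of -0.03 with quartiles of -0.59 and 0.41, was above 0 in 72 members and below 0 in 78, and was under 1 in size in 134 members. The age difference itself was larger in cpop1 than in WT (less negative or positive) by a median of 1.48. The conditions force this direction for the group medians of every member. limma called this difference of age effects positive in 127 members and negative in 0, where 9.71% of all features were called positive.

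**Figure D4:**
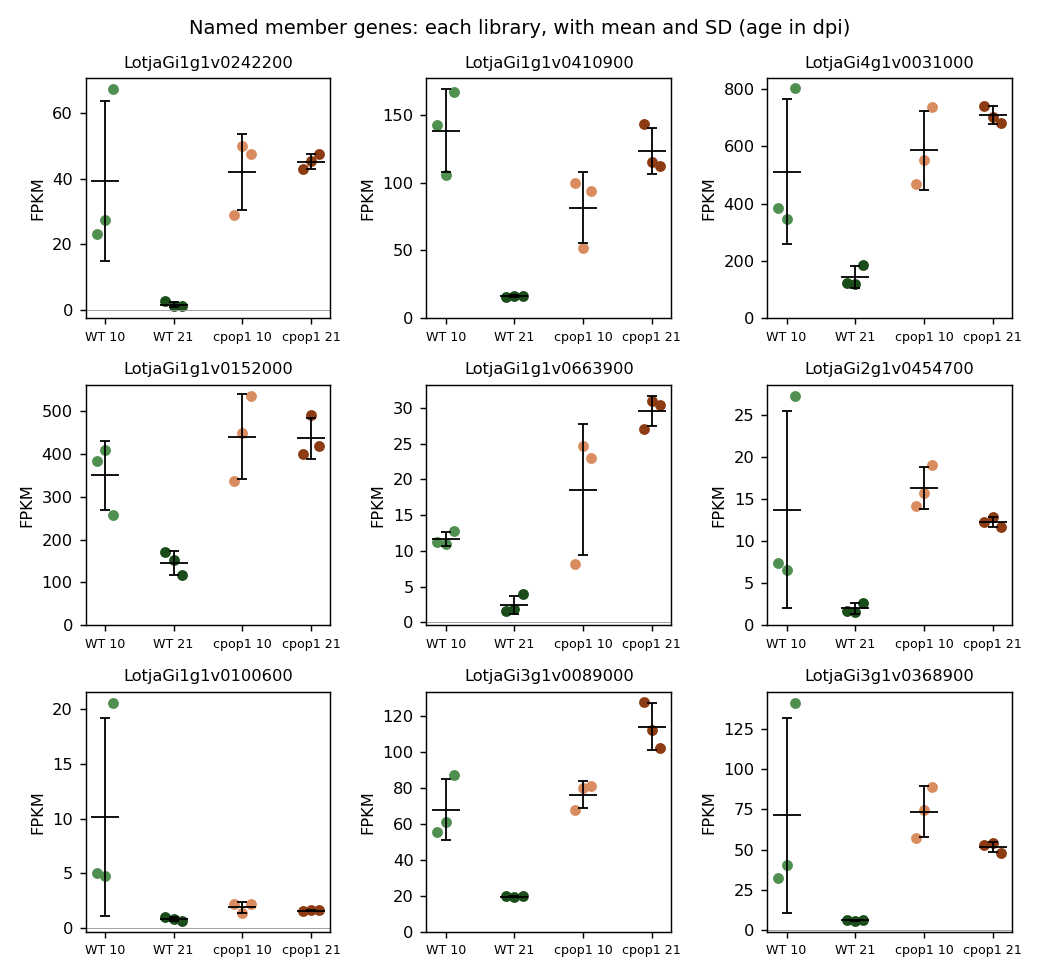
FPKM of 9 named members in each library (points; replicates 1 to 3 from left to right), with the mean (bar) and SD (whiskers) of each group of 3 libraries. In each panel WT at 21 dpi is the lowest group mean, and the WT 10 dpi whiskers are wide where replicate 3 lies far from replicates 1 and 2.

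In young nodules the genotypes were within a factor of 2 on the log2(FPKM + 1) scale by choice, and within that range members lay on both sides. The cpop1 median was above the WT median in 86 members and below it in 64, with a median difference of 0.10. Over all eligible genes the median was 0.17 and 41.1% were below 0, so this split was near the background. The members' median turned to -0.05 with equal library medians and to -0.04 with quantile normalization. limma, which uses means of all 3 libraries, called 3 members higher and 18 lower in cpop1, where 11.4% of all features were called higher and 11.3% lower. Without WT 10 dpi replicate 3 it called 57 higher and 28 lower, beside 36% and 27.9% of all features, so the direction that most calls took depended on that library. Without cpop1 10 dpi replicate 2 it called 1 higher and 5 lower, beside 1176 and 1192 of the 22249 features, so calls became fewer over all features too.

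LotjaGi4g1v0128300, named here after its values were seen, was the member with the largest estimate among the 3 called higher. It was at 33.1, 29.5 and 31.2 FPKM in young WT and at 51.8, 62.3 and 63.4 FPKM in young cpop1 nodules, with no overlap. LotjaGi2g1v0454700 had the largest positive difference of medians, 0.99, but was not called: it was at 7.36, 6.52 and 27.2 FPKM in WT and at 14.1, 15.6 and 19.0 FPKM in cpop1, and WT replicate 3 was above all cpop1 libraries. Its difference was 0.19 without WT replicate 1, 0.12 without replicate 2 and 1.07 without replicate 3. LotjaGi1g1v0100600 had the largest negative difference, -0.94, and was called lower in cpop1, with 5.07, 4.80 and 20.6 FPKM in WT and 2.17, 1.34 and 2.24 FPKM in cpop1. Its difference was -1.82 without WT replicate 1, -1.85 without replicate 2 and -0.90 without replicate 3. At 21 dpi it was at 1.01, 0.83 and 0.66 FPKM in WT and at 1.55, 1.65 and 1.62 FPKM in cpop1, so that it was low in the mutant at both ages.

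WT 10 dpi replicate 3 was above replicates 1 and 2 in 114 members (76.0%) and below both in 28 (18.7%). Over all eligible genes it was above both in 61.9% and below both in 31.4%. In the 320 genes lower by 1 or more with age in both genotypes, under the same 10 dpi condition, the shares were 72.5% and 22.8%. Its distance from the mean of the other replicates had a median of 0.64 over the members and of 0.34 over the eligible genes. It was 0.56 over those 320 genes, so the shift was not particular to the members. The median distance between replicates 1 and 2, taken without sign, was 0.18 over the members and 0.13 over the eligible genes. In 52 members replicate 3 was higher by 1 or more, and in 43 of these the cpop1 10 dpi median was above the WT median, against 43 of the other 98 members. Replicate 3 was nearer to the cpop1 10 dpi median than the mean of replicates 1 and 2 was in 73 members (48.7%), against 70.5% of eligible genes. The bound on the genotype difference at 10 dpi bears on this share. Under the same bound it was 53.4% in the genes lower in both genotypes and 62.0% in the mirrored choice. Without replicate 3, 138 of the 150 still met the conditions and 126 were again among the 150 first in rank.

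The WT difference was also measured against each young WT library alone. The choice used the median of these libraries, so it forces the difference against most of them in every member, and the counts are a description. Measured from replicate 1, 148 members were lower by 1 or more in mature WT nodules, with a median difference of -1.49. From replicate 2 it was 146 members, with a median of -1.55. From replicate 3 it was 140 members, with a median of -2.24 and a highest value of 0.82, so the difference was not present in every member. The genotype difference at 10 dpi depended on the library: the cpop1 median was above replicate 1 in 90 members and above replicate 2 in 87, but above replicate 3 in 38.

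**Figure D5:**
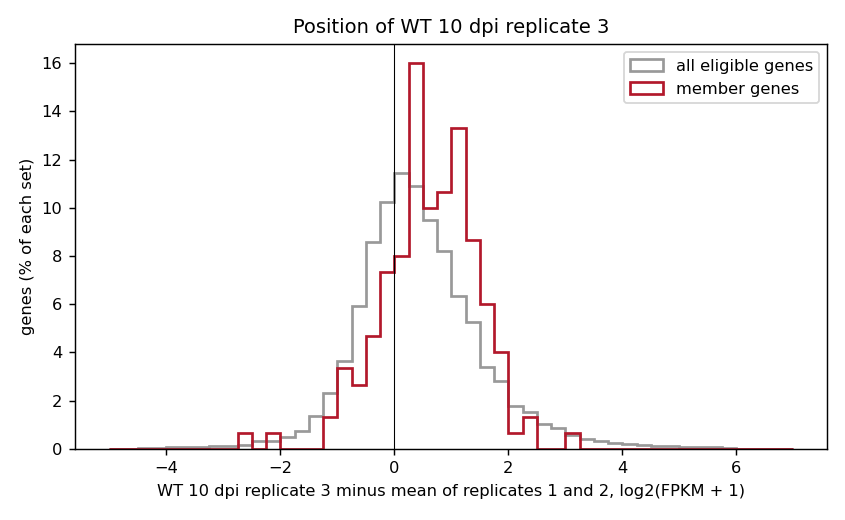
Distribution of WT 10 dpi replicate 3 minus the mean of replicates 1 and 2 on the log2(FPKM + 1) scale, for the 150 members (red) and all 16701 eligible genes (grey), in percent of each set and in bins of equal width. The red outline lies to the right of the grey one, with medians of 0.64 and 0.34.

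The spread between replicates differed by group as it did in the whole table. The median SD of a member over 3 libraries was 0.48 in WT at 10 dpi, 0.17 in WT at 21 dpi, 0.20 in cpop1 at 10 dpi and 0.14 in cpop1 at 21 dpi on the log2(FPKM + 1) scale. For the eligible genes these values were 0.38, 0.13, 0.18 and 0.12. Across the 150 members, libraries of mature cpop1 nodules correlated with those of young cpop1 nodules at 0.97 to 0.99. Mature WT libraries correlated with young WT libraries at 0.87 to 0.98 and with mature cpop1 libraries at 0.92 to 0.93. The bound of 0.5 on the cpop1 age difference favours the high values within cpop1. These correlations across genes therefore describe the chosen set, and members are not replicates.

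By the chromosome digit in their identifiers, 36 members came from chromosome 1, 28 from chromosome 2, 33 from chromosome 3, 24 from chromosome 4, 11 from chromosome 5 and 18 from chromosome 6. Chromosome 2 held 18.7% of the members and 14.1% of the eligible genes, and chromosome 5 held 7.33% and 12.5%. On the other 4 chromosomes the shares were within 4 percentage points of each other. When all identifiers of the table were put in order, 0 pairs of members stood next to each other and 5 pairs stood at most 3 steps apart. One of these pairs was LotjaGi4g1v0030800 with LotjaGi4g1v0031000, the member of highest mean level, named here after the order was seen. Members thus lay on all 6 chromosomes.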

How the data were processed

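The authors deposited FPKM for 12 libraries, as the table's header calls them. The submitters' processing notes name HISAT and Bowtie2 2.2.5, without their roles. For the FPKM tool, genome build and annotation, names were not given in the sources used here. Read depth is unknown: when low values of each library were divided by those of the same genes in 1 WT library, the most frequent ratio was 1.0 to 1.04, and no depth was derived from it. Mutant columns carry the name hemf2 and were tied to samples through the labels' descriptions.

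The members and the lists were chosen with earlier results of these data known. limma 3.58.1 in R 4.3.3 (1 mean per group, intensity trend, Benjamini-Hochberg adjustment over 22249 features) was fitted to log2(FPKM + 1) and tested on simulated data. Group medians, counts and plots used Python 3.11.15, NumPy 2.4.6, pandas 2.3.3 and matplotlib 3.10.9. p-values behind the calls measure the spread between libraries, which may be technical. Named members were the extremes of level and of each difference of medians. 0 of 40429 RefSeq rows (LjGifu_v1.2) matched an identifier, so gene lists by product were not used. Alternatives were pseudocounts, filters, scalings, a replicate block, fits to the groups compared, variance models, library weights, means in place of medians and single libraries left out. Other bounds for cpop1 and single WT 10 dpi libraries were added after seeing the data.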

Additional observations from a re-analysis of the deposited data

Results flagged for a closer look

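The test of the difference of age effects singled out 127 members as positive. The choice of members used the values behind this difference, so it is a description. Of the named members, it passed for LotjaGi1g1v0242200 (4.0), LotjaGi1g1v0410900 (3.63), LotjaGi1g1v0663900 (2.72), LotjaGi3g1v0368900 (2.60), LotjaGi3g1v0089000 (2.29), LotjaGi1g1v0100600 (2.17), LotjaGi4g1v0031000 (2.04) and LotjaGi1g1v0152000 (1.25), as differences of means on the log2(FPKM + 1) scale. LotjaGi2g1v0454700 did not pass.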

How the results depend on the processing

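Over the settings run, members called lower with age in WT, higher in cpop1 at 21 dpi and positive for the difference of age effects stayed within 1.5 times their counts. Members called between genotypes at 10 dpi numbered 21, beside 2542 features higher and 2511 lower. A filter at 5 FPKM gave 11 of 115 members tested, beside 1960 and 2154 of 15990 features. A replicate block gave 12, beside 2431 and 2418. A fit to the groups compared gave 2, beside 378 and 303, and library weights gave 114, beside 10068 and 8514. Members changed with age in cpop1 numbered 6, and 13 with equal library medians, 11 with quantile normalization and 22 with equal totals. The counts over all features under these scalings are given above. The fit to the groups compared gave 39, beside 3009 features higher and 7552 lower. Library weights, whose estimation stopped before it converged, gave 70, beside 4594 and 10386. With single libraries left out the ranges were 145 to 149 (WT age), 1 to 41 (cpop1 age), 6 to 85 (10 dpi), 126 to 144 (21 dpi) and 104 to 143 (difference of age effects). All 5 highest counts came without WT 10 dpi replicate 3. For cpop1 age 1 or 2 members were called without any single cpop1 library, and for 10 dpi 6 without cpop1 10 dpi replicate 2 and 11 to 16 without any library besides these 2. Over all features, fits with a library left out called 1157 to 3367 higher and 3001 to 8198 lower with age in cpop1. At 10 dpi they called 1082 to 8009 higher and 1000 to 6215 lower.

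Replicate numbers were not taken as pairs: 4 of 18 same-numbered correlations of deviations were above 0.1 (range -0.12 to 0.27), and at 10 dpi 4 of 6 libraries correlated best with their own number.

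The 400 genes meeting the conditions became 231 with equal library medians, 678 with means in place of medians and 1923 with WT 10 dpi replicate 3 alone, and 336 to 1057 with single libraries left out, the highest without WT 10 dpi replicate 1 (982 without replicate 2). Of the 150 members, 126 to 149 still met the conditions with a library left out and 107 to 150 under the other settings. Members again among the 150 numbered 83 at a pseudocount of 0.1, 90 with equal medians, 93 with quantile normalization, 82 with means, 21 with replicate 3 alone and 70 to 137 with a library left out (70 without WT 10 dpi replicate 1 or 2). The settings with replicate 3 alone were chosen after seeing the data. The causes were not tested. Of the differences recomputed for named members, 174 moved by less than the SD between replicates and 16 by more.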
